A study of Rattus norvegicus with 22 samples.

Results

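Complex I of the respiratory chain was followed through 37 genes in kidney RNA of 22 PKD/Mhm (Cy/+) rats. The genes were all those with a rat symbol beginning with Nduf, assembly factors (Ndufaf) left out, and a mean estimated count of at least 10 over the 22 rats. They were 37 of the 17334 genes listed, and all 37 were among the 12867 genes tested. By their known place in the complex, 7 were core subunits of the matrix arm, 8 accessory subunits of the matrix arm, 17 accessory subunits of the membrane arm, and 1, Ndufab1, sits in both arms. The other 4 carry the name without being counted as subunits here. Ndufa4 is now assigned to complex IV, and Ndufa4l2 is its paralog. Ndufs6-ps1 is listed as a pseudogene in the gene table that gave the names and Ndufa10l1 is a copy of Ndufa10. The subunits encoded by mitochondrial DNA, and Ndufs6, Ndufa3, Ndufb1 and Ndufc1, were not analysed here.

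Complex I takes electrons from NADH in the mitochondrial matrix, passes them along a chain of iron-sulfur clusters to ubiquinone and pumps protons across the inner membrane. The matrix arm holds the NADH site and the clusters, and the membrane arm holds the pumps. In the kidney the tubule epithelium, above all the proximal tubule and the thick ascending limb, is rich in mitochondria, because its transport of salt and solutes runs on oxidative ATP, whereas fibroblasts and macrophages hold fewer.

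PKD/Mhm (Cy/+) rats are heterozygous for a missense mutation of Anks6, the gene of SamCystin, and develop polycystic kidneys. All groups shared strain, mutation, male sex and an age of 8 months at sampling. Of the 22 rats, 6 were untreated, 6 received human adipose-derived stromal cells intraperitoneally (i.p. ASC) and 6 intravenously (i.v. ASC), 2000000 cells once a month for 6 months, and 4 received ASC-derived conditioned medium (CM) at the same intervals. For CM, the sources name different routes, i.v. in the study's methods and i.p. in the deposited design text. RNA came from the snap-frozen left kidney, with all its cell types together. Rats of the study given other cells were not analysed here. The comparisons ask whether cells by either route, or their medium, altered the kidney's transcripts of complex I.

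Total estimated counts ran from 12195682 to 14734772 per rat. Expression is given as CPM, counts scaled to library size after TMM correction for library composition, and as the deposited TPM, which also accounts for transcript length. In 5 rats, i.p. ASC rats 5 and 7, i.v. ASC rats 3 and 9 and CM rat 2, the TMM factor lay between 0.903 and 0.953, against 0.984 to 1.07 in the other 17, and no untreated rat was among the 5. These rats touch every comparison with the untreated group, so its results are given with and without them. In whole kidney RNA, more cells of a type and more RNA per cell cannot be told apart.

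Promoter sequences are shown for the 1 gene with both NRF1 and ETS matches (Ndufa6) and the gene with the most NRF1 matches (Ndufa11). Those of the members that moved least with the others in the rats, Ndufs1 and Ndufa4l2, are shown as well. The 4 genes were chosen after their values and matches were seen. RefSeq promoters of GRCr8, 300 bases from 250 before to 50 after the annotated start, were found for 32 of the 37 genes. Capitals mark matches, on either strand, to GCGCATGC (NRF1, nuclear respiratory factor 1), CCGGAAG (ETS family, which includes the respiratory factor GABPA) and AAGATGG (YY1). The sequences run 5′ to 3′ on the strand of the gene.
Ndufa6, chr7:115750268-115750567, minus strand: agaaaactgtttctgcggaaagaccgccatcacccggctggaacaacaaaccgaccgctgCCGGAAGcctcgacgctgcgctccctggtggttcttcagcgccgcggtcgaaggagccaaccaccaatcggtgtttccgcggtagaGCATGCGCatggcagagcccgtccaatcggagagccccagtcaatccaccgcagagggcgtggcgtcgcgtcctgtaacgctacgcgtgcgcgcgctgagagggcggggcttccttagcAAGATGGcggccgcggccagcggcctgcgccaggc
Ndufa11, chr9:1637364-1637663, plus strand: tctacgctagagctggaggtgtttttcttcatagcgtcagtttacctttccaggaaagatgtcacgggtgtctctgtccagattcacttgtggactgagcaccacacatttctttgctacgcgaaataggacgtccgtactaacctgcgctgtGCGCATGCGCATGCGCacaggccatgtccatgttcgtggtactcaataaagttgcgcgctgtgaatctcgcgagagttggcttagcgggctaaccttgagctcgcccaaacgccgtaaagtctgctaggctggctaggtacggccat
Ndufs1, chr9:72073556-72073855, minus strand: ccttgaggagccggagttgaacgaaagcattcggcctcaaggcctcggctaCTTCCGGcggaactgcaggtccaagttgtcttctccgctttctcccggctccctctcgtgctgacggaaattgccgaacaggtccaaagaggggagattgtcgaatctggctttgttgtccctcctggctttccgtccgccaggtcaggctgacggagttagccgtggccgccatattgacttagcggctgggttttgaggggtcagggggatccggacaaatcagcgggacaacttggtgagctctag
Ndufa4l2, chr7:65241919-65242218, plus strand: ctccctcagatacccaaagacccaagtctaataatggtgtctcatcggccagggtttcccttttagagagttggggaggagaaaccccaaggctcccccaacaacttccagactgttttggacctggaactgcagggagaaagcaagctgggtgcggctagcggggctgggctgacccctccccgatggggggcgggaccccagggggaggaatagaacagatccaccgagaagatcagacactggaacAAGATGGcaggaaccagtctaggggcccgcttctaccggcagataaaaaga

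The Ndufa6 promoter held a match of each kind, with the NRF1 match 104 bases before the start. In Ndufa11 the capitals hold 4 overlapping NRF1 matches, because the motif overlaps its own reverse complement. Ndufs1 held an ETS match and no NRF1 match, and Ndufa4l2 held a YY1 match only. Over the 32 promoters, NRF1 letters were in 2 (6.25%), against 4.60% of the promoters of 10393 tested genes. ETS letters were in 7 (21.9% against 16.4%) and YY1 letters in 7 (21.9% against 7.99%). AAGGTCA, the letters bound by estrogen-related receptors, was in 3, Ndufb2, Ndufb4 and Ndufs5 (9.38% against 2.99%), and TATAAA in 2, Ndufa2 and Ndufa7 (6.25% against 7.53%). The ETS letters end and the YY1 letters begin with the same bases, so matches to both can overlap. These shares are a description of letters in the windows, with no test.

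Complex I genes were among the most abundant transcripts per length. In mean TPM over the 22 rats, 33 of the 37 lay above the 90th percentile of all genes tested, with a median of 329 TPM. Ndufa4 was highest at 815 TPM, followed by the membrane arm subunits Ndufb8 at 674 and Ndufa13 at 672. Core subunits ran from 138 TPM for Ndufs1, the largest subunit and carrier of several clusters, to 346 for Ndufs7, which holds the last cluster before ubiquinone. The 4 genes below the 90th percentile differed in kind. Ndufs4, a matrix arm subunit, was at 104 TPM. Ndufab1, the mitochondrial acyl carrier protein, was at 48.4 TPM and Ndufa10l1 at 34.2. Ndufa4l2 was lowest at 10.7 TPM, or 20 to 139 counts per rat, while no other member fell below 311 counts in any rat.

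As a whole, the 37 genes spanned a wider range among the rats of each group than between the group means. Their mean was 6.72 ± 0.17 log2 CPM in the untreated group (SD, n = 6), 6.92 ± 0.18 after i.p. ASC (n = 6), 6.92 ± 0.19 after i.v. ASC (n = 6) and 6.81 ± 0.31 after CM (n = 4). The lowest, median and highest untreated rats had 6.45, 6.72 and 6.91. After i.p. ASC they had 6.68, 6.87 and 7.15, and after i.v. ASC 6.56, 6.95 and 7.09. CM rats 2, 11, 19 and 21 had 7.23, 6.83, 6.56 and 6.60. The groups overlapped throughout, and the 5 highest of all 22 rats were the 5 with a low TMM factor. The TMM factor enters the CPM of every gene, but the summed TPM, which does not use it, put the same 5 on top, at 14070 to 15055 TPM against 10468.5 to 13105 in the other 17.

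**Figure D1:**
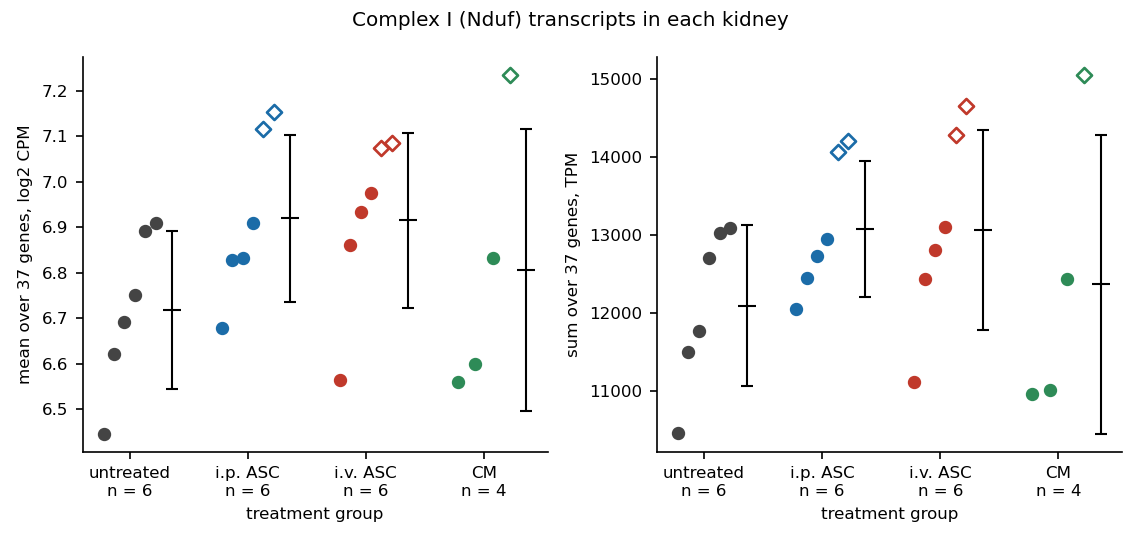
Mean log2 CPM (left) and summed TPM (right) of the 37 Nduf genes in each kidney by treatment group. Each point is 1 rat, open diamonds mark the 5 rats with a TMM factor below 0.96, and bars give the mean ± SD of the group. The 5 diamonds lie above the other 17 rats on both scales, and none of them is untreated.

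After i.p. ASC all 37 genes had a log2 fold change above 0, between 0.07 and 0.31 with a median of 0.20, and none passed the test. Among all genes tested, 46.2% had a fold change above 0 and the median was -0.01. The share of all genes called at an adjusted p below 0.05 was 0% (0 of 12867, quasi-likelihood F test of edgeR, Benjamini-Hochberg adjusted). At an unadjusted p below 0.05, 1.75% of all genes were called higher and 0 of the 37, and the smallest adjusted p among the 37 was 0.771 by edgeR. The unadjusted count, in either direction, depended on single rats and was 9 without i.p. ASC rat 15, 4 without untreated rat 12, 2 without untreated rat 18, 1 without i.p. ASC rat 6 and 0 without any other rat of the groups. With only these groups in the fit it was 3. The share of all genes in these refits is not given here, so the counts show only a dependence on the rats in the fit. DESeq2 called 0 genes at the adjusted threshold as well.

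Among the matrix arm core subunits, Ndufv1, which binds NADH and the flavin, had 222, 275 and 304 CPM as the lowest, median and highest untreated values. After i.p. ASC these were 280.3, 295 and 393 CPM, a log2 fold change of 0.23 (SE 0.13, 95% interval -0.05 to 0.51). The i.p. ASC values began within the untreated range and reached above it. Ndufs8, a carrier of iron-sulfur clusters, had 80.7, 97.2 and 113 CPM untreated and 101, 112 and 126 after i.p. ASC (log2 fold change 0.20, interval -0.06 to 0.45). Ndufv2, another carrier, had 106, 129 and 147 CPM untreated and 116, 144 and 167 after i.p. ASC, a difference of 0.17 (-0.07 to 0.41). Both overlapped the untreated rats. Toward the ubiquinone site, Ndufs3 had 106, 129 and 147.5 CPM untreated and 125, 138 and 173 after i.p. ASC, a difference of 0.19 (-0.07 to 0.45). Ndufs7 had 103, 125 and 143 CPM untreated and 125, 135 and 175 after i.p. ASC (log2 fold change 0.22, interval -0.06 to 0.49). The same overlap was seen in both. Ndufs1 differed by 0.19 (-0.13 to 0.51).

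The largest differences after i.p. ASC were those of Ndufa10l1, of the membrane arm subunit Ndufb6 and of Ndufa4. Ndufb6 had 62.9, 78.0 and 97.9 CPM in untreated rats and 70.6, 93.0 and 130.1 after i.p. ASC, a log2 fold change of 0.31 (SE 0.17, interval -0.05 to 0.66, adjusted p = 0.771 by edgeR). The ranges of the groups overlapped. Ndufa10l1 differed by 0.31 (-0.06 to 0.67). Ndufa4 had 251, 320.0 and 379 CPM untreated and 293, 359 and 520.0 after i.p. ASC (log2 fold change 0.29, interval -0.08 to 0.66). The smallest were those of Ndufa4l2 at 0.07 (-0.56 to 0.70), Ndufa13 (also known as GRIM-19) at 0.12 (-0.10 to 0.35) and the matrix arm subunit Ndufa7 at 0.13 (-0.13 to 0.39). Ndufab1 had 70.4, 86.0 and 96.0 CPM untreated and 78.5, 91.8 and 116 after i.p. ASC, a difference of 0.20 (-0.08 to 0.48).

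After i.v. ASC 36 of the 37 genes had a log2 fold change above 0, with a median of 0.23 and Ndufa4l2 as the exception, and again none passed the test. Among all genes 47.5% were above 0 and the median was -0.01. The share called at an adjusted p below 0.05 was 0% (edgeR), while DESeq2 called 28 genes, none of them among the 37. At an unadjusted p below 0.05, 3.81% of all genes were called higher, and 2 of the 37. This count too depended on single rats, which is all the refits show, since their share of all genes is not given here. In either direction it was 26 without i.v. ASC rat 14, 16 without untreated rat 12, 9 without untreated rat 18, 3 without i.v. ASC rat 10 and 0 without any other rat of the groups, and 10 with only these groups in the fit. The 2 genes were Ndufv3, a matrix arm subunit near the NADH site, and Ndufb9, a membrane arm subunit of the LYR protein family, both named after their values were seen. Ndufv3 had 133, 141 and 157 CPM in untreated rats and 136, 172 and 194 after i.v. ASC, a difference of 0.22 on the log2 scale (interval 0.01 to 0.42, adjusted p = 0.523 by edgeR). Ndufb9 had 126, 159 and 188 CPM untreated and 149, 206 and 221 after i.v. ASC, a difference of 0.28 (0.0005 to 0.56, adjusted p = 0.523 by edgeR).

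The largest differences after i.v. ASC were 0.31 for Ndufa2, a small matrix arm subunit with a thioredoxin-like fold (-0.01 to 0.63), 0.31 for the membrane arm subunit Ndufb3 (-0.001 to 0.61) and 0.30 for Ndufb6 (-0.06 to 0.65). The smallest were -0.34 for Ndufa4l2 (-0.98 to 0.29), 0.05 for Ndufs1 (-0.27 to 0.38) and 0.10 for Ndufa1, a small subunit near the junction of the arms (-0.13 to 0.33). Ndufs1 had 208, 237 and 274 CPM in untreated rats and 186, 233 and 352 after i.v. ASC, so that i.v. ASC rats held both the lowest and the highest value of the gene. Of the other core subunits, Ndufs8 differed by 0.23 (-0.02 to 0.48), Ndufv1 by 0.23 (-0.05 to 0.50), Ndufs7 by 0.20 (-0.07 to 0.47), Ndufv2 by 0.17 (-0.07 to 0.42) and Ndufs3 by 0.16 (-0.10 to 0.42). Ndufa4 differed by 0.25 (-0.12 to 0.63) and Ndufab1 by 0.22 (-0.06 to 0.50).

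After CM 35 of the 37 genes had a log2 fold change above 0, with a median of 0.11, the exceptions being Ndufa4l2 at -0.14 (-0.84 to 0.57) and Ndufa1 at -0.13 (-0.39 to 0.13). Ndufa7 was next at 0.01 (-0.28 to 0.30). Among all genes 49.1% were above 0 and the median was -0.003. None of the 37 passed, and the share called at an adjusted p below 0.05 was 0% (edgeR), while DESeq2 called 4 genes, none of them among the 37. At an unadjusted p below 0.05, 2.84% of all genes were called higher and 0 of the 37. In either direction the count of the 37 became 2 without CM rat 19 and 1 without CM rat 2. The share of all genes in these refits is not given here. The 3 largest differences were 0.28 for Ndufa10l1 (-0.13 to 0.68), 0.22 for Ndufa10 (-0.13 to 0.58) and 0.22 for Ndufb10 (-0.07 to 0.50), both membrane arm subunits. Ndufa10 had 266 CPM in CM rat 2 and 183, 148 and 149 CPM in rats 11, 19 and 21, against 134 to 177 in untreated rats, so that rat 2 stood well above the untreated range and rat 11 just above it. Ndufs3 had 176 CPM in CM rat 2 and 136, 106 and 108 in the others, against 106 to 147.5 in untreated rats, a difference of 0.03 (-0.26 to 0.33). The direction after CM rested on rat 2, and without it 4 of the 37 genes were above 0 and the median was -0.08.

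**Figure D2:**
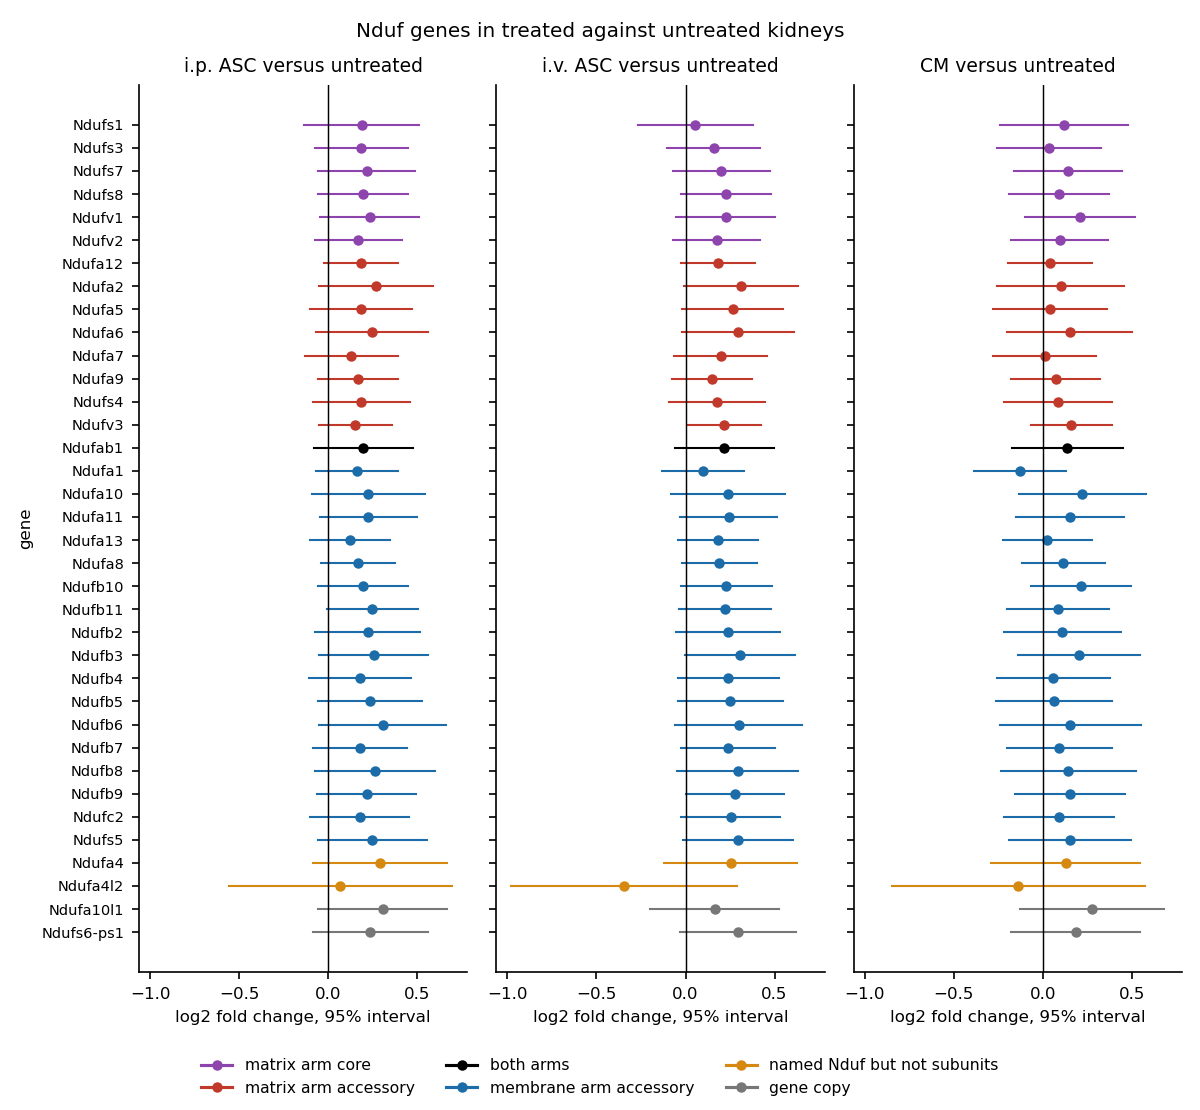
Log2 fold change (points) and 95% interval (lines) of 36 of the Nduf genes against the untreated group, for i.p. ASC, i.v. ASC and CM, coloured by place in complex I. Nearly all points lie right of 0 and nearly all intervals cross it, and Ndufa4l2 has the widest interval.

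The arms of the complex had similar medians, with no test between them. Core subunits had a median log2 fold change of 0.19 after i.p. ASC, 0.18 after i.v. ASC and 0.10 after CM. Accessory subunits of the matrix arm had 0.18, 0.21 and 0.08, and those of the membrane arm 0.22, 0.24 and 0.11. The 3 comparisons share the untreated rats, so their values are set side by side only. None of the 37 genes separated treated from untreated rats without overlap. Of all genes tested, 0.14% did so in the i.p. ASC comparison, 0.179% in the i.v. ASC and 1.42% in the CM comparison, so that 0 of 37 is near the background.

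Between the treated groups the differences were smaller still for the cells and of similar size for CM. For i.p. ASC against i.v. ASC the median was -0.02, with 14 of 37 above 0. CM against i.p. ASC gave a median of -0.10 with 2 of 37 above 0, and CM against i.v. ASC -0.12 with 3 above 0. None of the 37 passed in any of the 3 comparisons, in which 0% of all genes were called (edgeR). At an unadjusted p below 0.05, 0, 1 and 0 of the 37 were called in this order, against 2.18%, 2.95% and 4.1% of all genes. Without CM rat 2 the counts were 10 against i.p. ASC and 18 against i.v. ASC. For these refits the share of all genes is not given here, so the counts show only a dependence on that rat. At the adjusted threshold DESeq2 called 24, 2 and 22 of all genes and none of the 37.

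The differences from the untreated group were smaller without the 5 rats of low TMM factor, and for CM the sign turned. A drop was bound to follow, because the 5 were all treated and had the highest means over the 37 genes. The values therefore show only how much of each difference those rats carried. Without them the median of the 37 genes was 0.09 after i.p. ASC (36 above 0), 0.13 after i.v. ASC (35 above 0) and -0.06 after CM (5 above 0). In the remaining rats the mean over the 37 genes was 6.81 ± 0.10 log2 CPM after i.p. ASC (SD, n = 4), 6.83 ± 0.19 after i.v. ASC (n = 4) and 6.66 ± 0.15 after CM (n = 3), against 6.72 ± 0.17 in the untreated group.

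The sums of some cell type markers also set the 5 rats of low TMM factor apart. Whether markers moved with complex I within the other 17 rats was not tested. All 13 proximal tubule markers were tested and none was at 0 in any rat. Their summed level was 8222 to 12870 CPM in the 5 rats and 2384 to 6945 in the other 17. By group it ran from 2384 to 6120 CPM in untreated rats, 2572 to 12401 after i.p. ASC, 3332 to 12870 after i.v. ASC and 5129 to 12199 after CM. The 6 markers of fibroblasts and smooth muscle, among them the collagen genes Col1a1 and Col3a1, summed to 601 to 875 CPM in the 5 rats and 1068 to 2138 in the others. The 5 macrophage markers summed to 359.7 to 920.2 CPM in the 5 rats and 1042 to 2121 in the others. In summed CPM the 5 rats did not overlap the other 17 on these 3 lists, but a sum is carried by the most abundant genes. In mean log2 CPM the fibroblast and smooth muscle list stayed apart, at 6.45 to 6.95 in the 5 rats and 7.29 to 8.31 in the others. So did the macrophage list, at 5.02 to 6.21 against 6.46 to 7.32. The proximal tubule list did overlap on that scale, at 7.79 to 8.47 in the 5 rats and 6.49 to 7.95 in the others. Of its 13 genes, 8 were above 0 and 5 below after i.p. ASC and likewise after i.v. ASC. Endothelium, podocyte, collecting duct and thick ascending limb markers overlapped in summed CPM as well. With the mean of the proximal tubule markers as a covariate, the median of the 37 genes was 0.15 after i.p. ASC, 0.19 after i.v. ASC and 0.03 after CM. The sum of the 3 fat markers tested also separated the 5 rats, with 90.03 to 116 CPM against 27.5 to 71.4 in the others. In mean log2 CPM they overlapped, at 4.334 to 4.68 against 3.06 to 4.339. The lowest, median and highest log2 fold changes of the 3 genes were 0.01, 0.12 and 1.53 after i.p. ASC. They were -0.002, 0.39 and 1.64 after i.v. ASC, and -0.16, 0.07 and 1.80 after CM. Of the 5 fat markers listed, Adipoq had 208 to 517 counts per rat, Cidec 54 to 1055 and Cidea 57 to 131, while Plin1 had 0 to 15 and Ucp1 0 to 7. Urothelium markers were high in some i.v. ASC kidneys, with 363 and 218 summed CPM in rats 9 and 3, which are among the 5. They were at 88.7 and 15.5 in i.v. ASC rats 13 and 10. All other rats had 1.31 to 9.86. After i.v. ASC the 4 urothelium genes tested had a median log2 fold change of 5.48. All 4 were higher at an unadjusted p below 0.05, against 3.81% of all genes. None of the 4 passed the test (smallest adjusted p = 0.142 by edgeR). The part of fat, urothelium and other tissue in the complex I values was otherwise not tested.

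**Figure D3:**
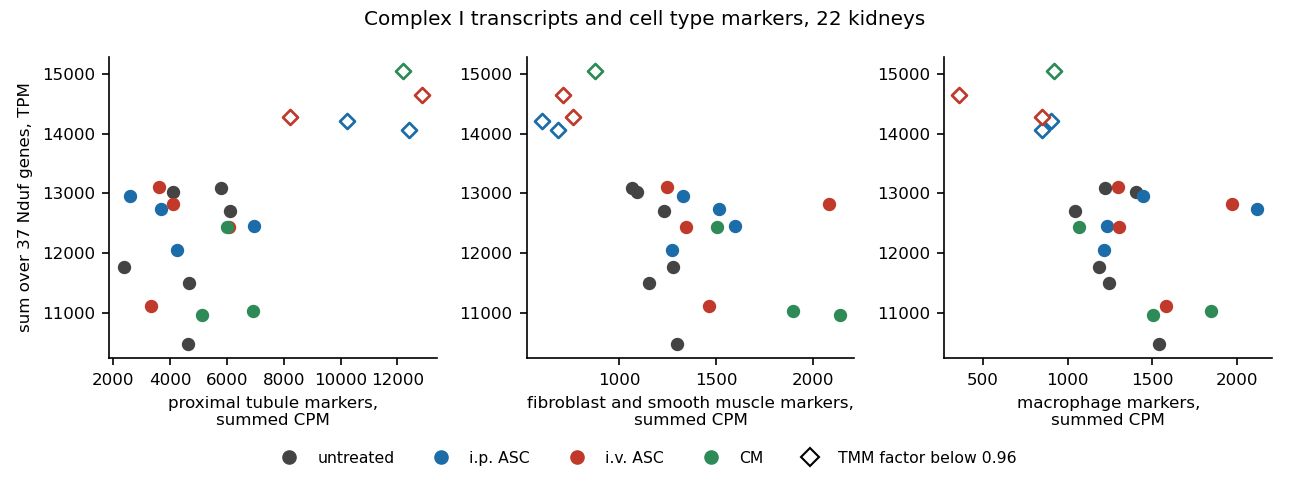
Summed TPM of the 37 Nduf genes against the summed CPM of proximal tubule, fibroblast and smooth muscle, and macrophage markers in each of the 22 kidneys. Open diamonds are the 5 rats with a TMM factor below 0.96, which lie apart from the other 17 at high complex I, high proximal tubule and low fibroblast and macrophage marker levels.

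From counts to TPM the median log2 fold change moved down, for the 37 genes toward 0 and for all genes away from it. On the log2(TPM + 1) scale the median of the 37 genes was 0.10 after i.p. ASC, 0.11 after i.v. ASC and 0.03 after CM, with 36, 34 and 27 above 0. The median of all genes was -0.10, -0.12 and -0.07 on this scale, and 23.3%, 23.4% and 30.6% of all genes were above 0. Relative to the median of all genes, the 37 were higher by 0.20, 0.22 and 0.09 from TPM and by 0.21, 0.24 and 0.11 from counts. From counts to TPM the 37 genes shifted by a median of -0.10, -0.13 and -0.08, and all genes by -0.09, -0.11 and -0.07. With the TPM scaled by TMM as well, the medians of the 37 genes were 0.20, 0.22 and 0.10. Those of all genes were then -0.01, -0.02 and -0.004. None of the 37 passed on TPM (limma-trend, 0 of 12867 genes called in each comparison). The genes whose direction differed between the scales were Ndufa4l2 after i.p. ASC, Ndufa1 and Ndufs1 after i.v. ASC, and 8 genes after CM, among them Ndufs3, Ndufa7 and Ndufa13.

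Complex I transcripts are short, with 31 of the 37 in the shortest of 4 equal classes of all genes tested by length, 4 in the second and 2 in the third. Shorter transcripts of any kind tended to sit higher in the cell-treated kidneys. After i.v. ASC the median of all genes was 0.07 in the shortest class, 0.01 and -0.02 in the middle ones and -0.08 in the longest. After i.p. ASC these medians were 0.04, 0.01, -0.02 and -0.07, and after CM 0.01, 0.002, -0.01 and -0.02. The 31 complex I genes of the shortest class had medians of 0.24, 0.20 and 0.10 in the same order, above that class in each comparison. The TPM values kept the slope over the classes. The cytosolic ribosomal proteins, which are as short, had medians of 0.02 after i.p. ASC, 0.15 after i.v. ASC and 0.01 after CM, and 0 of the 78 tested were called.

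**Figure D4:**
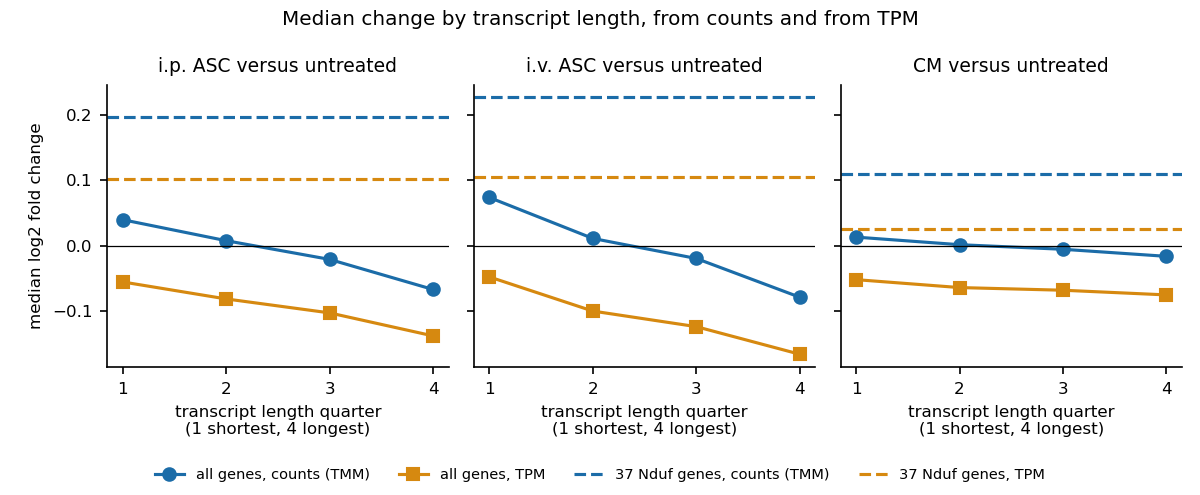
Median log2 fold change against the untreated group of all genes tested, in 4 equal classes of relative transcript length, from counts (circles) and TPM (squares). Dashed lines give the median of the 37 Nduf genes. All-gene medians decline from the shortest to the longest class, and the Nduf medians lie above the shortest class on both scales.

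Across the 22 rats the members moved nearly as one. In log2 CPM, 36 of the 37 genes correlated positively with the mean of the others at an adjusted p below 0.05 (Pearson's r, 100000 permutations, two-sided, adjusted over the 37). The share of all genes at that cut is not given here. All 36 had an r above 0.5, against 23.2% of all genes tested set against the same mean, and 44.6% of all genes had an r above 0. Pearson's r had a median of 0.95 and Spearman's rho one of 0.95. An r above 0.9 was reached by 30 of the 37, against 1.77% of all genes tested set against the same mean. The values of a rat share its library and size factor. With each treatment group centred on its own mean the median r was 0.95, and without rats 2 and 24, the 2 farthest from the median, it was 0.93. From TPM the median r was 0.84 and 33 genes passed. Within the 17 rats without the low TMM factor the median r was 0.92 and 34 passed. The shares of all genes passing in these settings are not given here. The co-movement of most members thus remained without the 5 rats. Ndufa10l1, Ndufs1 and Ndufa4l2 were exceptions. For Ndufa10l1 the r was 0.70 over the 22 rats and 0.34 within the 17 (adjusted p = 0.19, permutation test).

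Ndufb6 had the highest r at 0.99 (rho 0.97, n = 22, permutation p = 1e-05, the smallest the permutations can give), followed by Ndufb3 and Ndufb8. The core subunit Ndufs3 had an r of 0.98 and kept the smallest distance from the mean of the others, with an SD of 0.04 log2 units. Ndufs1 was the loosest subunit, with an r of 0.53 (rho 0.41, adjusted p = 0.01 for r and 0.057 for rho, permutation test). In 4 of the 5 rats with a low TMM factor Ndufs1 was at 338 to 352 CPM, and in the fifth, i.v. ASC rat 9, at 262. The other 17 rats spanned 186 to 274 CPM, and within them the r of Ndufs1 was -0.19 (adjusted p = 0.464, permutation test). The r of Ndufs1 therefore rested on those rats.

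Ndufa4l2, a gene known to be induced by low oxygen through HIF1A, was the member that ran the other way. Its r was -0.60 (rho -0.61, adjusted p = 0.0023 for r and 0.0036 for rho, n = 22, permutation test). It was also the most variable member, with an SD of 0.57 log2 CPM over the rats, against 0.18 to 0.32 for the other 36. Its lowest, median and highest CPM were 4.20, 5.86 and 8.72 in untreated rats, 3.85, 6.05 and 10.1 after i.p. ASC, and 1.62, 5.54 and 7.36 after i.v. ASC. CM rats 2, 11, 19 and 21 had 4.06, 5.78, 5.67 and 6.80. The 5 rats with a low TMM factor held 5 of the 6 lowest values, the other being untreated rat 12 at 4.20. Within the other 17 rats the r was -0.14 (adjusted p = 0.584, permutation test), so the inverse relation rested on the 5. Its fold change missed the threshold in every comparison, with intervals of -0.56 to 0.70 after i.p. ASC, -0.98 to 0.29 after i.v. ASC and -0.84 to 0.57 after CM.

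**Figure D5:**
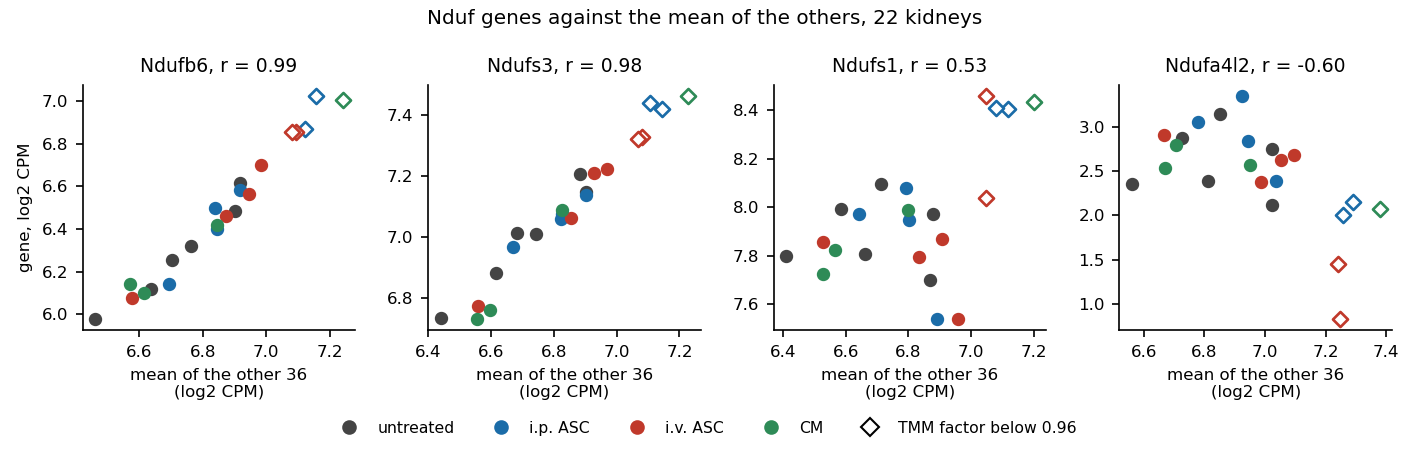
Log2 CPM of Ndufb6, Ndufs3, Ndufs1 and Ndufa4l2 against the mean log2 CPM of the other 36 Nduf genes, each point 1 of 22 kidneys coloured by group. Ndufb6 and Ndufs3 follow the mean, Ndufs1 does so loosely, and Ndufa4l2 is lowest in the kidneys with the highest mean.

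The rest of the respiratory chain was set beside complex I. Of 40 genes of complexes II to V tested, 39 were above 0 after i.p. ASC, 38 after i.v. ASC and 36 after CM, and none passed the test. Complex II, the succinate dehydrogenase, had medians of 0.21, 0.18 and 0.14 over its 4 genes. Complex III had 0.19, 0.21 and 0.09 over 9, complex IV 0.17, 0.19 and 0.05 over 12, and the ATP synthase 0.19, 0.21 and 0.10 over 15. These medians lay near those of complex I. The 70 mitochondrial ribosomal protein genes had 0.15, 0.16 and 0.08, with 68, 67 and 57 above 0, and none passed.

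Genes that build complex I or govern mitochondrial number were set beside it as well, with no test between the lists. The 17 assembly factors tested of 19 had medians of 0.09 after i.p. ASC, 0.10 after i.v. ASC and 0.09 after CM, with 16, 15 and 12 above 0. The 12 regulators of mitochondrial biogenesis had medians of 0.02, -0.01 and 0.06, with 7, 5 and 9 above 0. None of either list passed. The assembly factors ran from -0.10 to 0.30 after i.v. ASC. At an unadjusted p below 0.05, 2 of the 17 were higher after each of i.p. and i.v. ASC, against 1.75% and 3.81% of all genes. The regulators went both ways after i.v. ASC, from -0.49 to 0.37. At the same cut 2 of the 12 were higher and 1 lower, against 3.81% of all genes higher and 643 of 12867 lower. The 2 were Tfam, the mitochondrial transcription factor, at 0.17 (0.02 to 0.32) and Esrra, an estrogen-related receptor, at 0.14 (0.01 to 0.28), both with an adjusted p of 0.523 by edgeR and named after their values were seen. Ppargc1a, the coactivator PGC-1alpha and a main inducer of mitochondrial genes, had 37.7 CPM in untreated rats and 32.6, 26.9 and 30.6 CPM after i.p. ASC, i.v. ASC and CM. Its log2 fold change was -0.21 (-0.65 to 0.23), -0.49 (-0.93 to -0.05, adjusted p = 0.523 by edgeR) and -0.30 (-0.79 to 0.19).

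Counts of these genes carry a limit of their own. For 18 of the 37, among them Ndufb4, Ndufa13, Ndufa2 and Ndufa5, RefSeq names at least 1 further gene or pseudogene of the same stem, and how reads shared with such copies were split is not given in the sources used here. Ndufs6-ps1, named as a pseudogene, was listed at 413 to 947 TPM.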

How the data were processed

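RNA of the left kidney of 22 PKD/Mhm (Cy/+) rats was sequenced on a BGISEQ-500. The submitters' processing notes name Trim Galore 0.6.4, kallisto 0.4.6 and the build rn6. The authors deposited estimated counts per gene, of which 14.1% were not whole, and TPM per gene, which the authors' pipeline scales by transcript length and depth. How reads were assigned to strands is not given in the sources used here. Symbols came from a RefSeq table of GRCr8, used for names and promoter sequences only, and 17179 of 17334 genes matched. The 37 genes, the lists and the markers were chosen with earlier results of these data known.

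Estimated counts were rounded to whole numbers and tested in R 4.3.3 with edgeR 4.0.16 (TMM, filterByExpr, 12867 genes, 4 groups in one quasi-likelihood fit, Benjamini-Hochberg, threshold 0.05). CPM used the TMM factors, and log2 CPM a prior count of 2. TPM were tested as log2(TPM + 1) with limma 3.58.1 (limma-trend). A log2 fold change of TPM is on the log2(TPM + pseudocount) scale. Relative transcript length was estimated from the ratio of counts to TPM. Intervals are 95% intervals of the fit, and correlations used 100000 permutations. Fits were tested on simulated data. Total estimated counts of 12195682 to 14734772 per rat set the counting precision. Rats of a group differed beyond sampling noise (chi-square per gene 7.42 to 143 over 51 pairs).

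The genes followed by name were the core subunits, Ndufa4, Ndufa4l2, Ndufab1, Ppargc1a, and the 3 largest and 3 smallest fold changes of each comparison with untreated rats. Not all their values are printed. After i.v. ASC most are given as fold changes only, and after CM most core subunits, Ndufa4 and Ndufab1 are left out. The values of 1 gene are not reported here. Alternatives were DESeq2 1.42.0, its size factors, other filters, only the compared groups, other TPM settings, a surrogate variable (sva 3.50.0), a proximal tubule covariate and leaving out each rat. The fits without 5 rats and on 33 subunits alone were added after seeing the data.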

Additional observations from a re-analysis of the deposited data

Results flagged for a closer look

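In 6 of 152 sets of values looked at, each a gene or the mean over the genes in 1 treatment group, a single rat stood apart from its group beyond Dixon's 95% limit. Chance alone gives about 1 in 20, and 6 of 152 is below that share. The sets are not independent, because the genes move together, and all 6 lie in CM rat 2 or i.v. ASC rat 14. In CM rat 2, Ndufa1 was at 5.92 log2 CPM against 5.42 to 5.47 in the other 3 CM rats, and Ndufb5 at 7.43 against 6.79 to 6.87. In i.v. ASC rat 14, Ndufa13 was at 6.91 log2 CPM against 7.32 to 7.49 in the other rats of the group, Ndufa8 at 6.10 against 6.52 to 6.61, Ndufb7 at 6.37 against 6.77 to 6.94 and Ndufs6-ps1 at 6.04 against 6.57 to 6.79.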

How the results depend on the processing

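None of the 37 genes passed the adjusted threshold under any alternative. The median log2 fold change of the 37 genes stayed above 0 after i.p. ASC and after i.v. ASC under all alternatives, with 0.06 and 0.05 under 1 surrogate variable as the lowest values. After CM it turned to -0.0702 with 1 surrogate variable and to -0.0647 without the 5 rats of low TMM factor. The median of i.p. ASC against i.v. ASC, -0.02, turned to 0.00498 on log2(TPM + 1) with or without a filter, to 0.00501 on log2(TPM + 0.1), and to 0.014 with 1 surrogate variable. Leaving out 1 rat at a time gave medians of 0.15 to 0.25 after i.p. ASC, 0.18 to 0.30 after i.v. ASC and -0.0755 to 0.178 after CM (without CM rat 2 and without CM rat 19). For i.p. ASC against i.v. ASC the range was -0.0842 to 0.0370, with a positive sign without i.p. ASC rat 15 (0.0370), 16 (0.01) or 17 (0.006) and without i.v. ASC rat 3 (0.04) or 9 (0.03). For CM against i.p. ASC it was -0.29 to -0.01, and against i.v. ASC -0.31 to -0.03. The cause of these changes was not tested. Among the 19 Nduf genes followed by name, the sign changed in 8 of 456 values after i.p. ASC, 18 of 456 after i.v. ASC and 63 of 418 after CM. No paired analysis was possible because the groups hold different animals and share no animal numbers. The number of rats per group, 4 to 6, limits the precision of all comparisons, and Ndufa4l2 had the fewest counts, 20 to 139 per rat.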
